A study of Mus musculus with 42 samples.

Results

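The 10 genes described here make up the core of MHC class I antigen presentation in the mouse, and were taken from the count table by their symbols: B2m, H2-K1, H2-D1, Tap1, Tap2, Tapbp, Psmb8, Psmb9, Psmb10 and Nlrc5. All 10 were found among the 55011 genes of the table, which holds 42 RNA-seq libraries in 15 groups, all from mouse visceral adipose tissue (VAT). Levels are given as CPM, a gene's count scaled to the library total, to 3 significant digits.

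The stromal cells came from Pparg-Tdt mice and were 2 VAT mesenchymal stromal populations, VmSC5 and VmSC4. They were profiled after transfer into Kaeda recipients, after 8 days in adipogenic medium, and fresh, as 1000 double-sorted cells. The transferred groups were VmSC5-derived VmSC5 (n = 2), VmSC4-derived VmSC5 (n = 3) and VmSC4-derived VmSC4 (n = 3), and each cultured and fresh group had 3 libraries. Further VmSC5 adipogenic cultures are labelled with or without Treg (n = 3 each), and the series text speaks of medium conditioned by VAT regulatory T cells (Tregs) rather than of the cells. Others received oncostatin M (OSM), a cytokine of the IL-6 family, at 10 ng/mL, or PBS (n = 3 each). Floating adipocytes came from Pparg-Tdt mice with Foxp3-DTR (DTR+) and littermates lacking it (DTR-), with 2 libraries in each group. Both adipocyte groups received diphtheria toxin, and the DTR+ mice alone carried the receptor. DTR places the toxin receptor under Foxp3, so the toxin removes Foxp3-expressing cells throughout the body rather than in fat alone. Tregs of epididymal VAT were OSMf/f, titled KO, or OSM+/+ (n = 3 each), with no Cre driver named in the labels. Whether replicates came from separate animals or cultures is not said in the labels, so each p-value reflects only how far these libraries scatter, in part perhaps for technical reasons.

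MHC class I molecules show short peptides from inside the cell to CD8 T cells. A heavy chain, H2-K1 or H2-D1, pairs with B2m, the invariant light chain. Peptides are cut by the proteasome, carried into the endoplasmic reticulum by the transporter Tap1–Tap2, and loaded with the help of tapasin (Tapbp). Psmb8, Psmb9 and Psmb10 are the catalytic subunits of the immunoproteasome, which replace Psmb5, Psmb6 and Psmb7 of the constitutive proteasome. Nlrc5 is the transactivator of class I genes, and interferons are known to raise most genes of this pathway in many cell types.

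On GRCm38 with the GENCODE M21 annotation, 7 of the 10 genes lie on chromosome 17, within the MHC. Tapbp lies at 33915899-33929292 on the plus strand, H2-K1 at 33996017-34000347 on the minus strand and H2-D1 at 35262730-35267499 on the plus strand. Between them, Psmb9 lies at 34181987-34187764 on the minus strand and Tap1 at 34187553-34197225 on the plus strand, so that their annotated ends overlap head to head. Psmb8 at 34197721-34201454 and Tap2 at 34203527-34216321, both on the plus strand, follow. Outside the MHC, B2m lies on chromosome 2 at 122147686-122153083 on the plus strand. Psmb10 at 105935735-105938444 on the minus strand and Nlrc5 at 94434356-94527272 on the plus strand lie on chromosome 8. RefSeq (GRCm38.p6) gives promoter windows for 8 of the 10 genes, all but Tap2 and Nlrc5, and the 200 bases before each RefSeq start were searched. RefSeq starts H2-D1 at 35263094, Tapbp at 33919478, Psmb8 at 34198195 and Psmb9 at 34187330. The windows of these genes thus lay within their GENCODE spans given above, not upstream of them. The 2 windows shown belong to B2m, the light chain, and H2-K1, the heavy chain with the larger response to Treg, and carry matches to class I promoter motifs. Capitals mark those matches, and each sequence ends at the base before the RefSeq start, with B2m at chr2:122147487-122147686 on the plus strand and H2-K1 at chr17:34000348-34000547 on the minus strand.
B2m: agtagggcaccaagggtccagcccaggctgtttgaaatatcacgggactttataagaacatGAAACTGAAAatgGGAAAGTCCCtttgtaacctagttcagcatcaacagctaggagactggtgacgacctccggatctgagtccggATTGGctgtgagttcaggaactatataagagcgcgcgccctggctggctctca
H2-K1: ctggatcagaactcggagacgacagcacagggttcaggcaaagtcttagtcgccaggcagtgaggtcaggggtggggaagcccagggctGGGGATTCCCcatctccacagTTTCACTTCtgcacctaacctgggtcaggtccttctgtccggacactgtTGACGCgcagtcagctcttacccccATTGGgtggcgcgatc

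In B2m the capitals mark an interferon regulatory factor type match (GAAA, 2 free bases, GAAA), a kappa B type match (GGG, 2 free bases, TTTCC, on the opposite strand) and a CCAAT box on the opposite strand. In H2-K1 they mark a kappa B type match (GGG, 2 free bases, TTCCC), an interferon regulatory factor type match (GAA, 1 free base, TGAAA, opposite strand), the X2 core TGACGC and a CCAAT box on the opposite strand. H2-D1 held the same 4 motifs in the same order. Their first bases lay at -171, -150, -101 and -76 from its RefSeq start, with a further CCAAT at -53. With its window shifted by 60 bases, 127 of 140 aligned bases of H2-K1 and H2-D1 were identical, or 90.7%, and the longest shared run was 46 bases. Psmb8 held a GAS type match (TTC, 3 free bases, GAA) at -97, Tapbp a CCAAT at -165 and Psmb9 a CCAAT at -8, while the windows of Tap1 and Psmb10 held none of the spellings searched. Among 32851 windows of the same length, searched on both strands, 2.27% held the interferon regulatory factor spelling of B2m and 1.19% that of H2-K1. The GAS spelling was held by 5.49%, the kappa B spelling of H2-K1 by 1.25%, that of B2m by 1.18%, TGACGC by 5.37% and CCAAT by 29.3%. The spellings were chosen with these sequences in view, and a match is a description of letters only.

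Some counts of these genes could be shared with neighbours or copies, and the strand setting of the authors' counting is not given in the sources used here. Tap1 and Psmb9 share 212 exonic bases on opposite strands, 3.87% of Tap1's and 5.79% of Psmb9's exonic length. Tapbp shares 24.9% of its exonic bases with Gm19412, Tap2 14.1% with Gm15821 and Psmb8 14.7% with Gm20496. Of all 50-base stretches of its transcripts, H2-D1 shares 12.8% and H2-K1 9.63% with other genes, H2-Q1 and H2-Q10 foremost. Library totals ran between 1072147 and 12514783 counts. In the fresh and transferred libraries and the plain adipogenic cultures the 4 pan-leukocyte markers summed to at most 4.75 CPM, the fresh and transferred cells had stromal markers at 38740 to 134300 CPM, floating cells had adipocyte markers at 37940 to 41480 CPM, and the sorted Tregs had Treg markers at 3271 to 4230 CPM. Floating cells also had myeloid markers at 219.7 to 443.7 CPM and, in DTR- mice, endothelial markers at 374.5 and 474.1 CPM.

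Across the 15 groups, 7 of the 10 genes stood highest in VmSC5 cultures with Treg, and Tap1, Tap2 and Nlrc5 in the Tregs themselves, while 7 of the 10 stood lowest in cultures with OSM. The groups that came next differed by gene, with VmSC4-derived VmSC5 next in Tapbp (573 CPM, against 491 in KO and 481 in WT Tregs) and DTR+ adipocytes next in Psmb10 (129 CPM, against 96.8 in KO and 92.9 in WT Tregs). H2-K1 averaged 7680 CPM with Treg, 7130 in WT Tregs, 6910 in KO Tregs and 4240 in DTR+ adipocytes. It then averaged 1270 CPM in cultured VmSC5, 1140 in cultured VmSC4, 1070 in VmSC5-derived VmSC5 and 976 in VmSC4-derived VmSC5. Below these came DTR- adipocytes at 961 CPM, VmSC4-derived VmSC4 at 858, fresh VmSC5 at 729, PBS cultures at 718, cultures without Treg at 627, fresh VmSC4 at 563 and OSM cultures at 348. Neighbours in this order whose libraries did not overlap were with Treg and WT Tregs, DTR+ adipocytes and cultured VmSC5, and VmSC4-derived VmSC4 and fresh VmSC5. The same held for each neighbouring pair of the lowest 4 groups, and the other neighbours overlapped. Groups of different experiments differed in preparation and depth, and this order was not tested. With CPM rescaled by edgeR's TMM factors, 90 of the 150 group means of the 10 genes moved by at least the SD of their libraries. The other 60 moved by less, and the order was not redone on that scale.

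The 10 genes differed in how far their group means spread. Nlrc5 spread the most, 209-fold, between 494 CPM in WT Tregs and 2.37 CPM in fresh VmSC4. In Nlrc5, KO Tregs had 478 CPM and cultures with Treg 140 CPM, groups whose libraries did not overlap, and no other group passed 34.8 CPM. Psmb9 spread 59.8-fold and Psmb8 46.3-fold, with Psmb8 highest with Treg at 831 CPM and lowest without Treg at 17.9 CPM. B2m spread 25.6-fold, Tap1 22.2-fold, H2-K1 22.1-fold, H2-D1 15.3-fold, Psmb10 14-fold, Tapbp 11.5-fold and Tap2 11.4-fold. Compared per kilobase of exon, B2m was the most abundant with Treg at 7890 CPM per kb, followed by H2-D1 at 2760, H2-K1 at 2610 and Tapbp at 362, while Tap2 had 67.6 and Nlrc5 16.5. In fresh VmSC5, B2m and H2-D1 stood close on the same scale at 520 and 488 CPM per kb, H2-K1 had 248, and Nlrc5 had 0.432.

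**Figure D1:**
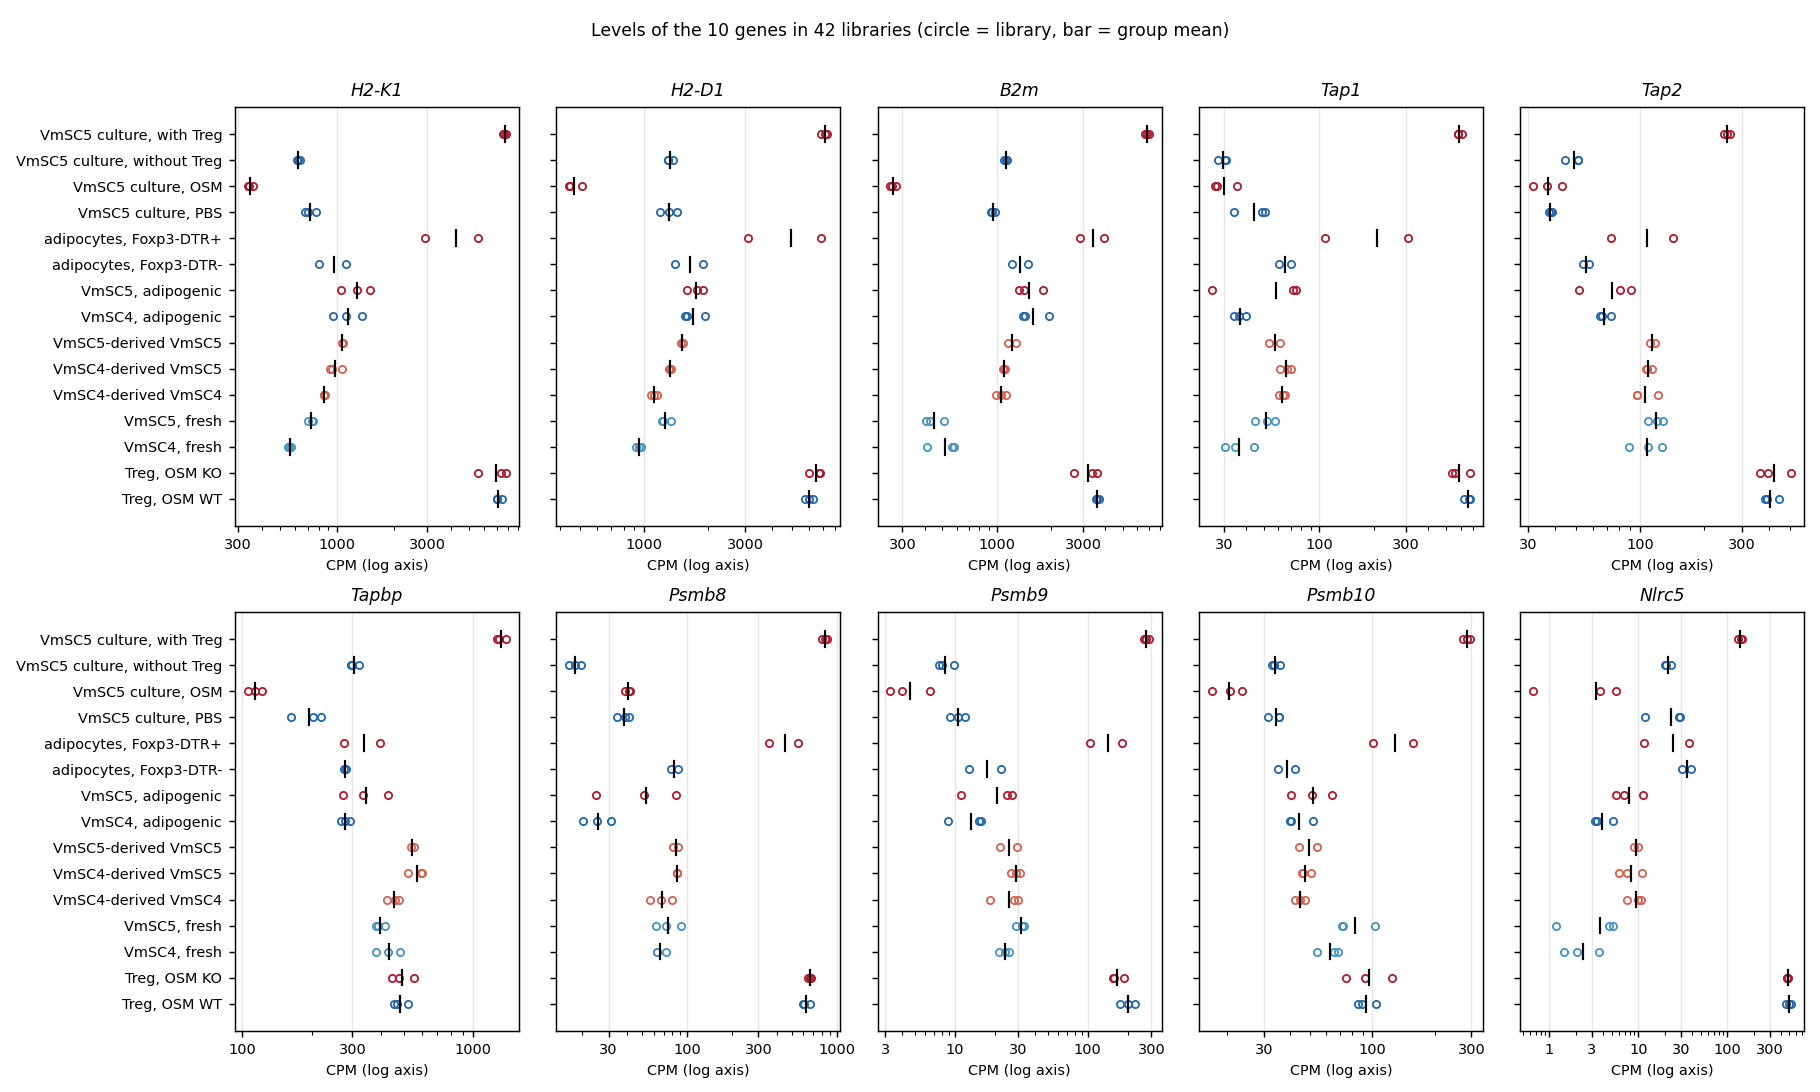
CPM of the 10 genes (log axis) in each of 42 libraries, with the 15 groups as rows, each circle a library and each bar a group mean. VmSC5 cultures with Treg stand apart from those without it in every panel, and Nlrc5 is highest in the Tregs, at 478 CPM in KO and 494 CPM in WT.

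Each gene's profile over the 15 group means was set against the mean standardised profile of the 10. Pearson's r was 0.98 for Psmb9, 0.977 for H2-K1, 0.971 for Tap1, 0.963 for H2-D1 and 0.94 for Psmb8. It was 0.895 for Tap2, 0.892 for Psmb10, 0.89 for B2m, 0.83 for Nlrc5 and 0.747 for Tapbp. Among 10589 other genes that reached 20 CPM in a group mean, the 8 most alike were Igtp (0.961), Gbp6 (0.958), Gm12250 (0.958), Gbp7 (0.953), Tgtp2 (0.932), H2-Q4 (0.925), Tor1aip1 (0.921) and Ifi47 (0.92). Igtp, Gbp6, Gbp7, Tgtp2 and Ifi47 are interferon-inducible GTPases. These r values describe 15 means that share libraries between genes and span several cell types, and carry no test. Each of the 10 genes is itself part of the mean profile, which raises its r, so its r is not comparable with those of the other genes.

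With Treg, VmSC5 cultures carried more transcript of all 10 genes than cultures without Treg, and each had its highest log2 fold change of the 13 comparisons between groups here. The heavy chains, light chain, transporter, tapasin, immunoproteasome subunits and Nlrc5 all rose, the immunoproteasome subunit Psmb8 the most at 46.5-fold and Tapbp the least at 4.34-fold. By edgeR's quasi-likelihood test 43.4% of all genes tested were called and 22.4% were called higher, and all 10 class I genes were called higher. The groups overlapped in none of the 10, where 25.5% of all genes lay higher without overlap. Their median log2 fold change was 2.91, against 0 for all genes tested. The 10 genes together took 2.48%, 2.55% and 2.55% of all counts with Treg, against 0.358%, 0.353% and 0.349% without.

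Psmb8 had 793, 832 and 868 CPM with Treg, against 16.3, 19.6 and 17.9 CPM (94, 128 and 83 counts) without. The groups were far apart, with a log2 fold change of 5.54 ± 0.08 (SE; edgeR adjusted p = 1.8e-35). Psmb9 had 275, 266 and 287 CPM with Treg, against 9.9, 7.67 and 7.96 CPM without. Its log2 fold change was 5.03 ± 0.1 (SE; edgeR adjusted p = 4.96e-32), or 32.6-fold. Psmb10, the third immunoproteasome subunit, had 274, 285 and 296 CPM with Treg, against 33.5, 32.7 and 35.7 CPM without. Its change was 8.48-fold, at 3.08 ± 0.07 in log2 (SE; edgeR adjusted p = 9.89e-29). The constitutive subunits they replace did not pass the test, with log2 fold changes of -0.03 ± 0.08 for Psmb5, 0.07 ± 0.06 for Psmb6 and -0.04 ± 0.07 for Psmb7 (SE). Psme1 and Psme2, the subunits of the proteasome activator PA28, rose by 1.77 ± 0.06 and 0.93 ± 0.06 (log2 fold changes with SE; edgeR adjusted p = 2.41e-23 and 7.56e-15).

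Both transporter subunits rose. Tap1 had 578, 613 and 582 CPM with Treg, against 27.8, 30.4 and 31 CPM without, a 20.1-fold difference. Its log2 fold change was 4.33 ± 0.07 (SE; edgeR adjusted p = 1.42e-33). Tap2, its partner in the transporter, had 264, 254 and 248 CPM with Treg, against 51.2, 51.5 and 44.7 CPM without, a 5.21-fold difference at 2.38 ± 0.07 (log2, SE; edgeR adjusted p = 1.82e-25). Per kilobase of exon, Tap1 lay above Tap2 with Treg, at group means of 108 and 67.6 CPM per kb, and below it without, at 5.43 and 13 CPM per kb. Tapbp had 1290, 1380 and 1270 CPM with Treg, against 320, 300 and 295 CPM without (log2 fold change 2.12 ± 0.06, SE; edgeR adjusted p = 7.24e-27).

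Both heavy chains rose, H2-K1 with the higher fold change. H2-K1 had 7570, 7810 and 7670 CPM with Treg, against 641, 626 and 613 CPM without. The difference was 12.4-fold, at 3.63 ± 0.06 in log2 (SE; edgeR adjusted p = 1.35e-34). H2-D1 had 6860, 7330 and 7160 CPM with Treg, against 1370, 1300 and 1300 CPM without. The difference was 5.42-fold, at 2.44 ± 0.05 in log2 (SE; edgeR adjusted p = 8.47e-30). For every 100 counts of H2-D1 there were 110, 106 and 107 of H2-K1 with Treg, against 46.8, 48.1 and 47.2 without, so the ratio of the 2 genes differed without overlap. B2m had 6810, 6600 and 6940 CPM with Treg, against 1090, 1140 and 1120 CPM without, and its 6.11-fold rise (log2 2.61 ± 0.05, SE; edgeR adjusted p = 8.09e-31) lay between those of the heavy chains. Nlrc5 had 133, 142 and 145 CPM with Treg, against 23.3, 19.9 and 20.7 CPM without, a 6.63-fold difference (log2 2.73 ± 0.09, SE; edgeR adjusted p = 9.04e-25).

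Genes around the pathway moved in the same comparison. Of 21 other class I pathway genes tested, 16 rose and 1 fell, among them the non-classical class I genes H2-Q6 (776 CPM with Treg, 2.64 without), H2-Q7 (626 and 12.8), H2-T22 (1090 and 72.9) and H2-T23 (1020 and 27.9). Of 14 regulators tested 8 rose and 2 fell. The transcription factors of interferon signalling among them included Stat2 (322 CPM with Treg, 19.1 without), Irf1 (219 and 31.7) and Irf9 (140 and 14.9). Rfx5, part of the complex Nlrc5 works with, did not pass the test at 0.45 ± 0.38 (log2 fold change, SE; edgeR adjusted p = 0.371). All 12 interferon-inducible GTPases tested rose, with Igtp at 1330 CPM with Treg and 6.29 without and Iigp1 at 3850 and 74.3. All 20 type I interferon response genes rose too, with a median log2 fold change of 7.24, among them Irf7 (1500 CPM with Treg, 5.96 without), Bst2 (1660 and 32.7) and Isg15 (560 and 1.19). All 7 class II genes tested rose, from lower levels, with H2-Ab1 at 61 CPM with Treg and 0.385 without. Of 7 interferon receptor and Janus kinase genes tested 4 rose, with Ifnar2 at 1.46 and Jak2 at 1.26 (log2 fold change).

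Ifng and Ifnb1, the only interferon genes examined, were sparse in these cultures. Ifng had 0 counts in all 6 libraries, which allows up to 0.378, 0.417 and 0.418 CPM with Treg, against 0.521, 0.46 and 0.645 CPM without, counting 3 reads as the limit of a 0 and covering counting error only. Ifnb1 had 5, 3 and 4 counts with Treg, against 0 in each library without. Foxp3, the Treg transcription factor, had 0 counts in each library with Treg, and the 6 Treg markers summed to 4.16, 3.2 and 3.06 CPM with Treg, against 3.47, 3.53 and 4.09 CPM without. Treg marker RNA was thus at the same low level in both groups. The adipocyte markers summed to 18850, 17890 and 20360 CPM with Treg, against 29120, 30540 and 28510 without, and the stromal markers to 12270, 11370 and 10510 CPM with Treg, against 4022, 3911 and 4556 without. Myeloid markers summed to 193, 187 and 222 CPM with Treg, against 327, 272 and 307 without, and the leukocyte markers to 19.3, 24.7 and 28.3 CPM with Treg, against 23.3, 13.5 and 16.4 without. The part of these shifts in the class I result was not tested. In bulk libraries such as these, a change in the number of cells of a type and a change of RNA per cell cannot be told apart.

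OSM, given to VmSC5 during adipogenic differentiation, went with less class I heavy chain, light chain and Nlrc5 transcript than PBS, while Tap2 and Psmb8 did not pass the test. The test called 45.8% of all genes, and 23% of all genes were lower, and 7 of the 10 genes were called lower and 0 higher. Their median log2 fold change was -0.8, against 0 for all genes. They took 0.131%, 0.129% and 0.139% of all counts with OSM, against 0.314%, 0.34% and 0.354% with PBS.

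B2m had 277, 257 and 262 CPM with OSM, against 929, 978 and 934 CPM with PBS. It was 3.32-fold lower, at -1.73 ± 0.08 (log2 fold change, SE; edgeR adjusted p = 3.5e-23). H2-D1 had 442, 446 and 509 CPM with OSM, against 1190, 1310 and 1420 CPM with PBS (log2 fold change -1.38 ± 0.08, SE; edgeR adjusted p = 2.49e-19). H2-K1 fell less, with 338, 344 and 362 CPM with OSM, against 680, 700 and 774 CPM with PBS (log2 fold change -0.94 ± 0.08, SE; edgeR adjusted p = 1.5e-13). For every 100 counts of H2-D1 there were 76.4, 77.2 and 71.1 of H2-K1 with OSM, against 57.4, 53.3 and 54.3 with PBS. Nlrc5 had 5.62, 3.73 and 0.657 CPM with OSM, against 29.4, 28.9 and 11.9 CPM with PBS. These rest on 7, 4 and 1 counts with OSM and 38, 60 and 14 with PBS, and the groups did not overlap (log2 fold change -2.8 ± 0.45, SE; edgeR adjusted p = 1.78e-06). Of all genes tested 31.4% lay lower with OSM without overlap.

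Peptide supply genes gave a mixed picture. Tapbp had 106, 114 and 122 CPM with OSM, against 163, 204 and 219 CPM with PBS (log2 fold change -0.67 ± 0.12, SE; edgeR adjusted p = 4.21e-06). Tap1 had 35.3, 27 and 27.6 CPM with OSM, against 34, 48.6 and 50.3 CPM with PBS, overlapping groups (log2 fold change -0.47 ± 0.21, SE; edgeR adjusted p = 0.061), and was called lower with library totals as the scale (adjusted p = 0.0209), without OSM replicate 1 (0.0384) and without PBS replicate 1 (0.0165). Tap2 had 43.3, 31.7 and 36.8 CPM with OSM, against 38.6, 37.5 and 38.4 CPM with PBS, a log2 fold change of 0.08 with a 95% interval of -0.32 to 0.48. Psmb8 had 38.5, 42 and 40.7 CPM with OSM, against 34, 38.5 and 40.9 CPM with PBS, a log2 fold change of 0.2 with an interval of -0.19 to 0.59. Psmb10 had 16.8, 20.5 and 23.7 CPM with OSM, against 35.5, 35.6 and 31.5 CPM with PBS. Its log2 fold change was -0.64 ± 0.23 (SE; edgeR adjusted p = 0.0205), and the call was lost without OSM replicate 1 (0.104) or PBS replicate 2 (0.0687) and under DESeq2 (0.0818). Psmb9 rested on 5, 7 and 5 counts with OSM and 12, 22 and 14 with PBS. Its log2 fold change of -1.13 ± 0.43 (SE; edgeR adjusted p = 0.0297) was lost without OSM replicate 1 (0.0987) or 3 (0.147), without PBS replicate 2 (0.0891) or 3 (0.0828), with no filter on low counts (0.0619) and under DESeq2 (0.119).

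The constitutive subunits also fell with OSM, by 0.79 for Psmb5, 0.6 for Psmb6 and 0.96 for Psmb7 on the log2 scale, as did Psme1 by 0.82 and Psme2 by 1.14. Among the regulators, Irf1 did not pass the test at 0.17 ± 0.21 (log2 fold change, SE). Of 19 other class I pathway genes tested 4 rose and 6 fell. The endoplasmic reticulum chaperones Calr and Pdia3, which help fold the heavy chain, were among those that rose, at 1.3 and 1.12 (log2 fold change). Of 6 type I interferon response genes tested 1 rose and 2 fell, and of 6 interferon-inducible GTPases tested 1 rose and 1 fell, Iigp1 having 14.7 CPM with OSM and 99.9 with PBS. Both class II genes tested rose, H2-Ab1 having 21.9 CPM with OSM and 2.8 with PBS. Adipocyte markers summed to 1327, 1650 and 1837 CPM with OSM, against 19140, 17380 and 16720 with PBS, and stromal markers to 57350, 55890 and 47220 CPM with OSM, against 10530, 10470 and 10890 with PBS. Pericyte markers summed to 1765, 1510 and 1583 CPM with OSM, against 444.2, 512.4 and 421.2 with PBS, and endothelial markers to 160.5, 160.4 and 205 CPM with OSM, against 51.76, 54.85 and 60.53 with PBS. The part of these marker shifts in the class I result was not tested.

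The OSM response minus the Treg response was tested in 1 fit over both sets of VmSC5 cultures, each against its own control. Of all genes tested 32.5% differed and 17.5% were lower in the OSM response, and all 10 class I genes were lower there. The median of the differences was -4.41 on the log2 scale, against 0.03 for all genes. The difference was largest for Psmb9 at -6.13 ± 0.37 and smallest for Tap2 at -2.26 ± 0.18 (log2, SE; edgeR adjusted p = 6.19e-18 and 4.32e-14). Psmb5, Psmb6 and Psmb7 differed by -0.72, -0.63 and -0.88, less than any of the 10. Of the neighbouring lists, 19 of 20 type I interferon response genes and 9 of 12 GTPases were lower in the OSM response, and 0 were higher.

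**Figure D2:**
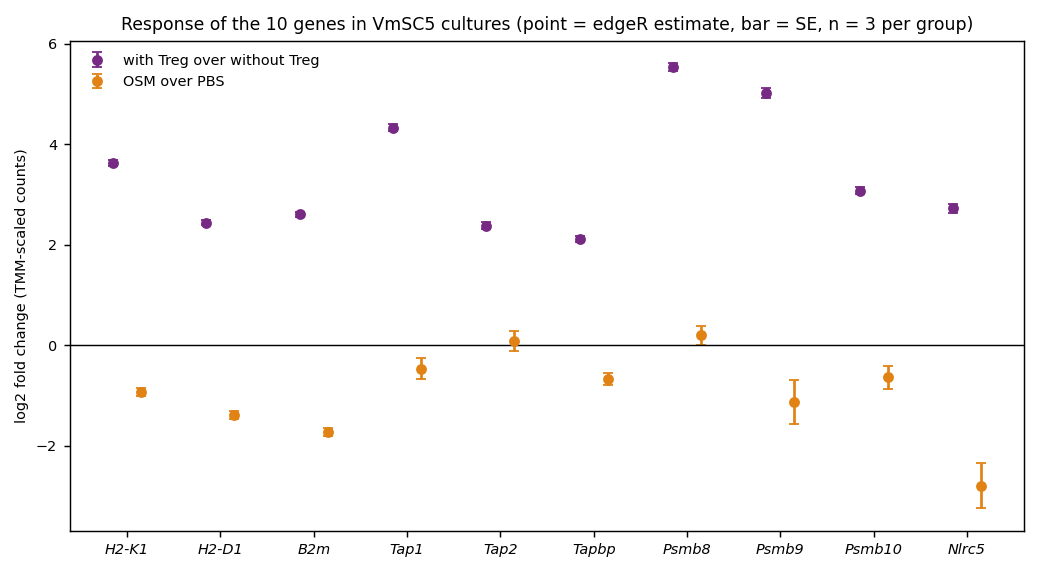
Log2 fold change (TMM-scaled counts, bar = SE) of the 10 genes in VmSC5 cultures with Treg over without Treg and with OSM over PBS, n = 3 libraries in each group. All 10 points of the Treg response lie above 2, and those of the OSM response lie between -2.8 for Nlrc5 and 0.2 for Psmb8.

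In adipocytes of DTR+ mice, 8 of the 10 genes lay above DTR- littermates without overlap, as did 15.4% of all genes tested, but few passed the test with 2 libraries a group. The 2 DTR+ libraries stood apart from each other over all genes, with a chi-square per degree of freedom of 130.4, against 25.7 between the DTR- libraries and at most 21.51 within other groups. Calls were made for 2.43% of all genes tested, with 0.491% higher, and of the 10 genes 2 were called higher, both immunoproteasome subunits. The median log2 fold change of the 10 was 2.07, against -0.04 for all genes.

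Psmb9 had 103 and 182 CPM in DTR+ adipocytes, against 22.1 and 12.7 CPM in DTR- adipocytes. It was 11.9-fold higher, at 3.57 ± 0.7 in log2 (SE; edgeR adjusted p = 0.00948). Psmb8 had 356 and 552 CPM in DTR+ adipocytes, against 86.8 and 78 CPM in DTR- adipocytes (log2 fold change 3 ± 0.68, SE; edgeR adjusted p = 0.0205). Psmb10 had 101 and 157 CPM in DTR+ adipocytes, against 42.5 and 35.3 CPM in DTR- adipocytes, and did not pass (2.26 ± 0.64, SE; edgeR adjusted p = 0.066). H2-K1 had 2920 and 5570 CPM in DTR+ adipocytes, against 1110 and 807 CPM in DTR- adipocytes (2.7 ± 0.73, SE; edgeR adjusted p = 0.0528). H2-D1 had 3100 and 6810 CPM against 1890 and 1390 CPM, and B2m 2900 and 3900 CPM against 1490 and 1210 CPM, DTR+ before DTR- in both (edgeR adjusted p = 0.135 and 0.177). In these 3 genes, too, no DTR+ library lay below a DTR- library.

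The DTR+ libraries were far apart in several genes, though not in 1 direction. DTR+ replicate 3 was higher than replicate 2 for the heavy chains, B2m and the 3 immunoproteasome subunits, and lower for Tap1, Tap2, Tapbp and Nlrc5. Tap1 had 309 and 109 CPM in DTR+ adipocytes, against 70.6 and 60.2 CPM in DTR- adipocytes. Tap2 had 143 and 73.2 CPM in DTR+ adipocytes, against 57.8 and 54.3 CPM in DTR- adipocytes. Neither passed (edgeR adjusted p = 0.0995 and 0.27). Nlrc5 had 37 and 11.6 CPM in DTR+ adipocytes, against 38.8 and 30.8 CPM in DTR- adipocytes, with a log2 fold change of -0.24 and a 95% interval of -1.55 to 1.07. Tapbp had 396 and 275 CPM in DTR+ adipocytes, against 275 and 283 CPM in DTR- adipocytes, overlapping groups (0.67 ± 0.59, SE; edgeR adjusted p = 0.577).

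Around the pathway, 4 of 21 other class I pathway genes rose in DTR+ adipocytes and 0 fell, among them H2-T23 (114 CPM in DTR+, 5.9 in DTR-) and H2-Q10 (87.3 and 8.08). Of 12 GTPases 4 rose, with Igtp at 293 CPM in DTR+ and 17.8 in DTR-, and of 19 type I interferon response genes 2 rose, Zbp1 and Bst2. Irf1 rose, with 258 and 201 CPM in DTR+ adipocytes, against 59.5 and 46.2 in DTR- adipocytes (edgeR adjusted p = 0.0292). Ifng had 0 counts in all 4 libraries. Endothelial markers summed to 41.4 and 13.9 CPM in DTR+ adipocytes, against 374.5 and 474.1 in DTR- adipocytes, and stromal markers to 197 and 234 CPM in DTR+ adipocytes, against 587 and 1632 in DTR- adipocytes. Leukocyte markers summed to 21.6 and 9.13 CPM in DTR+ adipocytes, against 49.4 and 51.7 in DTR- adipocytes, and T and NK cell markers to 1.335 and 0.2726 CPM in DTR+ adipocytes, against 0.5057 and 0.134 in DTR- adipocytes. Adipocyte markers summed to 37940 and 41480 CPM in DTR+ adipocytes, against 38780 and 39290 in DTR- adipocytes. The part of these shifts in the result was not tested. Without DTR- replicate 2 or 3 no class I gene was called, without DTR+ replicate 2 there were 8 and without DTR+ replicate 3 there were 7, and DESeq2 called 7 with all libraries. Over all genes, 26 were called without DTR- replicate 2, 6 without DTR- replicate 3, 5370 without DTR+ replicate 2, 918 without DTR+ replicate 3 and 545 by DESeq2, against 287 with all libraries by edgeR. In such fits the lone library of a group is assumed to vary like the pair of the other. With library totals in place of TMM as the scale 0 were called, and both Psmb8 and Psmb9 had an edgeR adjusted p of 0.268.

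Fresh VmSC5 carried slightly more heavy chain and Tap1 transcript than fresh VmSC4. Of all genes tested 18.4% were called and 7.41% were called higher, and of the 10 genes 4 were called higher and 0 lower. H2-D1 had 1220, 1340 and 1210 CPM in VmSC5, against 946, 919 and 968 CPM in VmSC4 (log2 fold change 0.5 ± 0.1, SE; edgeR adjusted p = 0.000755). H2-K1 had 707, 735 and 744 CPM in VmSC5, against 555, 574 and 560 CPM in VmSC4 (0.46 ± 0.1, SE; edgeR adjusted p = 0.00202). Tap1 had 44.8, 57.5 and 52.1 CPM in VmSC5, against 30.4, 34.6 and 44.3 CPM in VmSC4 (0.59 ± 0.15, SE; edgeR adjusted p = 0.00686). In these 3 genes, and in Psmb9 and Psmb10, no VmSC5 library lay below a VmSC4 library, as in 10.3% of all genes tested. Psmb10 had 72.2, 71 and 103 CPM in VmSC5, against 65, 68.6 and 54 CPM in VmSC4 (0.49 ± 0.15, SE; edgeR adjusted p = 0.0255), and the call was lost without VmSC5 replicate 3 (0.177) or VmSC4 replicate 3 (0.0981), with the 2 groups fitted alone (0.0594) and with library totals (0.0662). Psmb9 had 28.7, 33.4 and 32.1 CPM in VmSC5, against 23.9, 25.7 and 21.7 CPM in VmSC4, and just missed the threshold (0.49 ± 0.18, SE; edgeR adjusted p = 0.0595), which it passed with RLE scaling (0.0413) and under DESeq2 (0.0242).

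B2m, unlike the heavy chains it pairs with, had 511, 425 and 405 CPM in fresh VmSC5, against 408, 566 and 579 CPM in fresh VmSC4, overlapping groups (-0.12 ± 0.12, SE; edgeR adjusted p = 0.534). Tap2, Tapbp and Psmb8 did not pass either, and Nlrc5 rested on 45, 49 and 10 counts in VmSC5 and 45, 23 and 17 in VmSC4 (edgeR adjusted p = 0.252). Of 21 other class I pathway genes 5 rose and 1 fell in VmSC5, with H2-Q10 at 3.85 and H2-Q7 at 2.68 (log2 fold change). Among the regulators Irf1 (0.54), Rfx5 (1.29) and Rela (0.53) rose (log2 fold change). Of 18 type I interferon response genes 4 rose, at 0.46 for Irf7 to 1.13 for Oas1a among them, and of 11 GTPases 2 rose, Gbp4 and Gbp7. Psmb5, Psmb6 and Psmb7 were not called.

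After transfer into recipients, both populations carried more B2m, H2-K1 and Nlrc5 than their fresh counterparts, while Psmb10 fell and Psmb8 and Psmb9 were called in neither. Of all genes tested 46.4% were called in VmSC5-derived VmSC5 against fresh VmSC5 (23.9% higher, 22.4% lower) and 46.1% in VmSC4-derived VmSC4 against fresh VmSC4 (21.4% higher, 24.7% lower). Of the 10 genes, 4 were higher and 1 lower in the first and 5 higher and 1 lower in the second, so calls in either direction lay near the share over all genes. B2m had 1280 and 1160 CPM in VmSC5-derived VmSC5, against 511, 425 and 405 CPM in fresh VmSC5 (log2 fold change 1.39 ± 0.14, SE; edgeR adjusted p = 1.2e-08). In VmSC4-derived VmSC4 it had 1050, 984 and 1120 CPM, against 408, 566 and 579 CPM in fresh VmSC4 (1.04 ± 0.13, SE; edgeR adjusted p = 2.72e-07). H2-K1 had 1060 and 1080 CPM in VmSC5-derived VmSC5, against 707, 735 and 744 CPM in fresh VmSC5 (0.5 ± 0.11, SE; edgeR adjusted p = 0.000704). In VmSC4-derived VmSC4 it had 855, 855 and 866 CPM, against 555, 574 and 560 CPM in fresh VmSC4 (0.63 ± 0.1, SE; edgeR adjusted p = 1.57e-05). Transferred and fresh libraries did not overlap in either gene. Of all genes tested, 34.4% lay higher without overlap in VmSC5-derived VmSC5 and 24.5% in VmSC4-derived VmSC4.

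Other members moved in 1 of the 2 populations or rested on few libraries. Nlrc5 had 8.85 and 9.79 CPM in VmSC5-derived VmSC5, against 4.63, 5.21 and 1.17 in fresh VmSC5 (1.28 ± 0.45, SE; edgeR adjusted p = 0.021), a call lost without fresh replicate 3 (0.107) or either transferred library (0.0765 and 0.11). In VmSC4-derived VmSC4 it had 9.84, 10.7 and 7.53 CPM, against 3.6, 2.06 and 1.46 in fresh VmSC4 (1.97 ± 0.43, SE; edgeR adjusted p = 0.000535). Psmb10 was lower in both, with 54.1 and 44.5 CPM in VmSC5-derived VmSC5, against 72.2, 71 and 103 CPM in fresh VmSC5 (-0.79 ± 0.18, SE; edgeR adjusted p = 0.000825). In VmSC4-derived VmSC4 its log2 fold change was -0.45 ± 0.16 (SE; edgeR adjusted p = 0.0257), and leaving out any library of the 2 groups but fresh replicate 3 gave 0.0563 to 0.0925. Tap1 rose in VmSC4-derived VmSC4, with 63.3, 65.1 and 60.5 CPM, against 30.4, 34.6 and 44.3 CPM in fresh VmSC4 (0.81 ± 0.15, SE; edgeR adjusted p = 0.000143). In VmSC5-derived VmSC5 Tap1 stood at 0.09 and was not called, and the difference between the 2 responses was not tested. Tapbp rose in VmSC5-derived VmSC5 (0.42 ± 0.12, SE; edgeR adjusted p = 0.0078, 0.073 without its transferred replicate 1), and H2-D1 in VmSC4-derived VmSC4 (0.26 ± 0.1, SE; edgeR adjusted p = 0.033). The H2-D1 call was lost without fresh replicate 1 (0.0589) or 2 (0.0726) or transferred replicate 3 (0.0911), with the 2 groups fitted alone (0.0514) and with no filter on low counts (0.2 in log2, 0.253). Psmb8, Psmb9 and Tap2 were called in neither.

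Of the constitutive subunits, 2 fell after transfer. Psmb5 fell by 2.61 on the log2 scale in each of the 2 comparisons, and Psmb6 by 1.12 in VmSC5-derived VmSC5 and 1.16 in VmSC4-derived VmSC4, while Psmb7 was called in neither. Of 11 GTPases tested, 5 rose and 0 fell in the first and 9 rose and 0 fell in the second, and of 18 type I interferon response genes 9 and 11 rose and 0 fell. Stromal markers summed to 84140 to 134300 CPM in transferred libraries, against 38740 to 44940 CPM in fresh ones, and the part of this in the result was not tested. Library totals were 1967123 to 5044946 counts in transferred libraries, against 8527769 to 12514783 in fresh ones. Depth and any difference in preparation go with transfer and cannot be told apart from it.

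Among the transferred groups the 10 genes differed little. VmSC4-derived VmSC5 against VmSC4-derived VmSC4 gave 0 calls, where 1.77% of all genes were called. Of the 10 genes, 4 had an unadjusted p under 0.05 by edgeR and 2 were called by DESeq2. Of all 13947 genes tested these were 2262 and 482. The nearest were Tapbp, with 524, 599 and 596 CPM in VmSC4-derived VmSC5, against 478, 423 and 457 CPM in VmSC4-derived VmSC4 (0.42 ± 0.11, SE; edgeR adjusted p = 0.0515), and H2-D1 (0.34 ± 0.1, SE; edgeR adjusted p = 0.0741). Against VmSC5-derived VmSC5 it gave 0 calls, where 1.15% of all genes were called, with 0 genes at an unadjusted p under 0.05 and 0 DESeq2 calls, and log2 fold changes between -0.13 and 0.28. Of all genes there, 1534 had an unadjusted p under 0.05 by edgeR and 274 were called by DESeq2. VmSC5-derived VmSC5 against VmSC4-derived VmSC4 gave 1 call, where 3.41% of all genes were called and 1.96% were called higher. H2-D1 had 1490 and 1520 CPM in VmSC5-derived VmSC5, against 1080, 1150 and 1110 CPM in VmSC4-derived VmSC4 (0.45 ± 0.11, SE; edgeR adjusted p = 0.0175). The call was lost without either VmSC5-derived library (0.198 and 0.176) or VmSC4-derived VmSC4 replicate 1 (0.106).

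After 8 days in adipogenic medium, B2m, H2-K1 and H2-D1 stood higher than in fresh cells in both populations. Tap1, Tap2, Tapbp, Psmb9 and Psmb10 were called in neither by edgeR with TMM scaling, the low-count filter and all libraries. Of all genes tested 71% were called in cultured against fresh VmSC5 (33.4% higher, 37.6% lower) and 70.4% in VmSC4 (31.9% higher, 38.5% lower). Of the 10 genes, 4 were higher and 0 lower in VmSC5, and 4 were higher and 1 lower in VmSC4. B2m had 1420, 1330 and 1800 CPM in cultured VmSC5, against 511, 425 and 405 CPM in fresh VmSC5 (log2 fold change 2.18 ± 0.15, SE; edgeR adjusted p = 1.24e-11). In cultured VmSC4 it had 1440, 1390 and 1960 CPM, against 408, 566 and 579 CPM in fresh VmSC4 (2.16 ± 0.15, SE; edgeR adjusted p = 1.52e-11). H2-K1 had 1280, 1050 and 1490 CPM in cultured VmSC5, against 707, 735 and 744 CPM in fresh VmSC5 (1.23 ± 0.13, SE; edgeR adjusted p = 2.86e-09). In VmSC4 its log2 fold change was 1.56 ± 0.13 (SE; edgeR adjusted p = 3.53e-11). H2-D1 changed by 0.9 ± 0.11 in VmSC5 and 1.38 ± 0.11 in VmSC4 (SE; edgeR adjusted p = 6.94e-08 and 2.89e-11). Cultured and fresh libraries did not overlap in any of these 3 genes, while 27.3% of all genes tested lay higher without overlap in VmSC5 and 23.5% in VmSC4. With library totals in place of TMM as the scale, the log2 fold changes of all genes shifted by -0.43 in VmSC5 and -0.55 in VmSC4, and the values above are relative to the TMM scale. On library totals Tap2 was called lower in both populations (-0.69 in VmSC5 and -0.67 in VmSC4), as were Psmb9 (-0.59 and -0.86) and Psmb10 (-0.67 and -0.51), and Tapbp was called lower in VmSC4 (-0.63). In CPM these 4 genes lay lower without overlap in cultured VmSC4, as did 55.3% of all genes tested. On the TMM scale Tap2 was called lower in VmSC5 with no filter on low counts (-0.39, edgeR adjusted p = 0.0294) and without cultured replicate 3 (-0.45, 0.0379). Tapbp was called higher there without cultured replicate 2 (0.33, 0.0413).

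Tap1 averaged 57.8 CPM in cultured and 51.5 in fresh VmSC5, and 36.7 in cultured and 36.4 in fresh VmSC4. In VmSC5 it was called higher with no filter on low counts (log2 fold change 0.45, edgeR adjusted p = 0.035) and without cultured replicate 2 (0.9, 0.000178). DESeq2 called it there too (0.59, adjusted p = 0.0483). In VmSC4 it was called higher with the 2 groups fitted alone (0.54, edgeR adjusted p = 0.0154). Nlrc5 rested on 16, 13 and 21 counts in cultured VmSC5 and 6, 9 and 11 in cultured VmSC4. It was called higher in VmSC5 (1.5 ± 0.48, SE; edgeR adjusted p = 0.00715, 0.0706 without cultured replicate 3) and in VmSC4 (1.26 ± 0.54, SE; edgeR adjusted p = 0.0382), where groups overlapped and each single-library omission but that of fresh replicate 1 ended the call (0.0554 to 0.167). Psmb8 had 25, 20.3 and 31.2 CPM in cultured VmSC4, against 63.1, 72 and 63.1 CPM in fresh VmSC4, and was called lower (-0.84 ± 0.33, SE; edgeR adjusted p = 0.0401), a call that each omission but that of cultured replicate 3 ended (0.0711 to 0.138). The Nlrc5 call in VmSC4 was also lost with no filter on low counts (edgeR adjusted p = 0.0787) and with library totals (0.225). The Psmb8 call was also lost with RLE scaling (0.0521). The constitutive subunits, by contrast, all rose in culture, Psmb7 by 2.94 in VmSC5 and 2.85 in VmSC4, Psmb5 by 1.79 and 1.89 and Psmb6 by 1.11 and 1.38 (log2 fold changes, VmSC5 first). Psme1 and Psme2 rose too, by 0.98 and 1.83 in VmSC5 and by 1.15 and 2.05 in VmSC4. H2-Q10, a secreted class Ib molecule, had 542 CPM in cultured and 4.84 in fresh VmSC5, and 202 CPM in cultured and 0.345 in fresh VmSC4. Adipocyte markers summed to 37890 to 40540 CPM in these cultures, against 1325 to 2059 in fresh cells, and stromal markers to 1033 to 1392 CPM, against 38740 to 44940. Endothelial markers summed to 0.5344 to 4.299 CPM in cultured cells, against 58.02 to 133.1 in fresh cells, and mitochondrial genes took 6.05% to 7.26% of counts, against 0.0722% to 0.423%. Library totals were 1841664 to 2606360 counts in cultured cells, against 8527769 to 12514783 in fresh cells. Depth and any difference in preparation go with culture and cannot be told apart from it. The part of these shifts in the result was not tested.

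**Figure D3:**
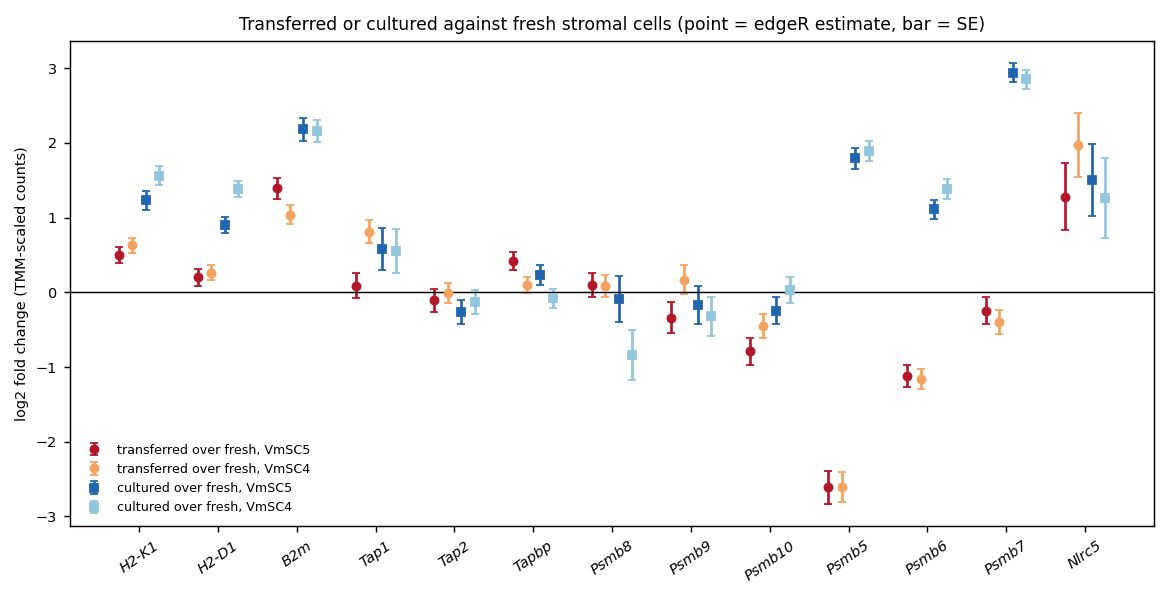
Log2 fold change (TMM-scaled counts, bar = SE) of the 10 genes and of Psmb5, Psmb6 and Psmb7 in transferred over fresh cells (circles) and cultured over fresh cells (squares) for VmSC5 and VmSC4. B2m is above 1 in all 4 comparisons, and Psmb5 lies at -2.61 after transfer and at 1.79 and 1.89 in culture.

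Between the cultured populations, VmSC5 against VmSC4, 0 of the 10 genes were called, where 0.34% of all genes were called. Of the 10 genes, 2 had an unadjusted p under 0.05 by edgeR and 0 were called by DESeq2. Of all 13221 genes tested these were 1040 and 94. The libraries of cultured VmSC5 were not alike. Psmb8 had 51.6, 24.5 and 84.4 CPM in cultured VmSC5, against 25, 20.3 and 31.2 CPM in cultured VmSC4. Tap1 had 72.2, 25.8 and 75.4 CPM in cultured VmSC5, against 36.4, 34.1 and 39.6 CPM in cultured VmSC4. Replicate 2 of VmSC5 thus lay among the VmSC4 libraries in Psmb8 and below them in Tap1. The 20 type I interferon response genes summed to 1373, 70.16 and 1262 CPM in cultured VmSC5, against 299.7, 89.01 and 186.8 CPM in cultured VmSC4, with the same replicate low, and their part in the result was not tested. Psmb8 differed by 1.02 ± 0.36 (log2, SE; edgeR adjusted p = 0.439), and Tap1 by 0.61 (0.683). Both genes were called without that replicate, at 1.36 for Psmb8 (edgeR adjusted p = 0.00138) and 0.96 for Tap1 (0.0141), and with no other library left out. Since the replicate stands out by its low values of these same genes, the fits without it are no independent support for a difference. With no filter on low counts Psmb8 was called with all libraries (edgeR adjusted p = 0.000234). The response to culture of VmSC5 minus that of VmSC4 gave 0 calls among the 10 genes, where 2.87% of all genes were called. Of all 13221 genes tested 2338 had an unadjusted p under 0.05 by edgeR, and of the 10 genes 1 did. That gene was H2-D1, at -0.48 ± 0.16 (log2, SE; edgeR adjusted p = 0.0946), which DESeq2 called (adjusted p = 0.0213).

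**Figure D4:**
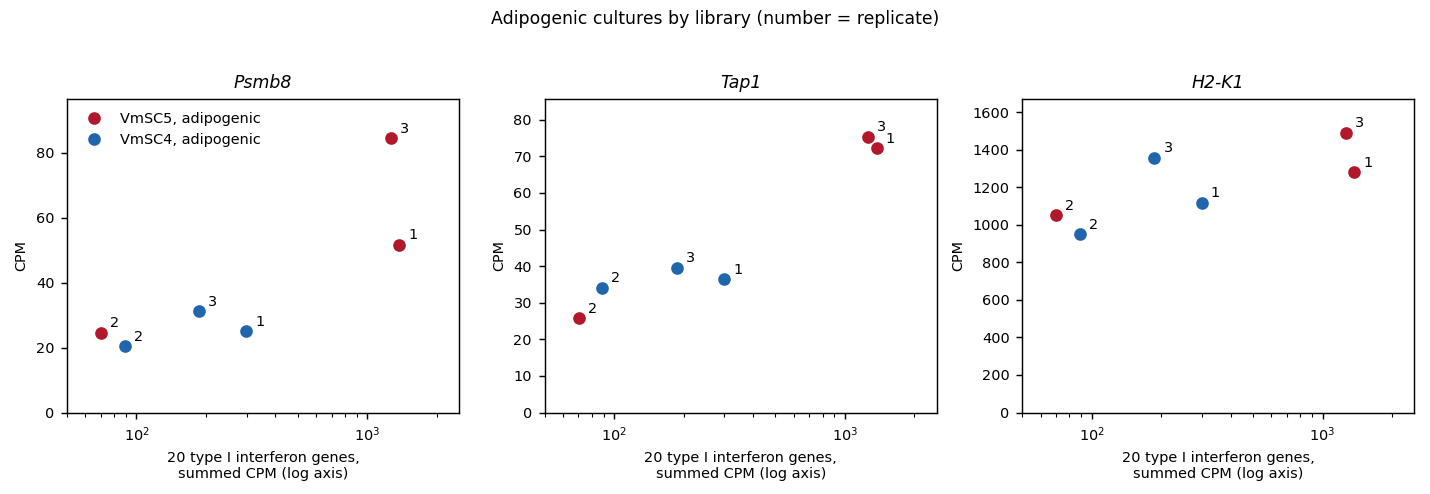
CPM of Psmb8, Tap1 and H2-K1 against the summed CPM of 20 type I interferon response genes (log axis) in the 6 adipogenic libraries, the number beside each point being its replicate. VmSC5 replicate 2, at 70.16 CPM of the interferon genes, lies among the VmSC4 libraries in Psmb8 and below them in Tap1, apart from VmSC5 replicates 1 and 3.

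The balance of immunoproteasome and constitutive subunits was expressed as the share of Psmb8, Psmb9 and Psmb10 in the CPM per kilobase of all 6 catalytic subunits. It was 63.2%, 64.9% and 63.1% with Treg, against 8.81%, 8.78% and 9.76% without. It was 9.95%, 11.6% and 9.41% with OSM, against 7.88%, 8.54% and 7.65% with PBS, so the OSM libraries lay slightly above although Psmb9 and Psmb10 had fallen. DTR+ adipocytes had 37.3% and 33.1%, against 13.5% and 14.9% in DTR- adipocytes. The share was 39% to 41.4% in VmSC4-derived VmSC5, against 40.1% to 40.9% in VmSC4-derived VmSC4, and 42.6% and 37.8% in VmSC5-derived VmSC5. Fresh cells had 22.7%, 23.7% and 24.3% in VmSC5, against 21.2%, 19.7% and 20.6% in VmSC4. Cultured cells had 8.21%, 5.59% and 11.7% in VmSC5, against 6.49%, 5.41% and 6.85% in VmSC4. Transferred libraries thus lay above fresh ones, and Psmb5 had 13.1 to 21.7 CPM in transferred libraries, against 85.7 to 124 CPM in fresh ones. Pair by pair and per kilobase, Psmb8 was 56.7% and 54.7% of Psmb8 plus Psmb5 in VmSC5-derived VmSC5, against 16.1%, 15.7% and 16.4% in fresh VmSC5. Psmb9 was 11.7% and 8.59% of Psmb9 plus Psmb6, against 5.95%, 7.36% and 5.42%. Psmb10 was lower, at 80.2% and 76% of Psmb10 plus Psmb7, against 82.5%, 82.2% and 86.3%. In VmSC4-derived VmSC4 against fresh VmSC4 the Psmb8 and Psmb9 pairs were also higher, and the Psmb10 pair overlapped. With OSM, Psmb8 was 10.7%, 12.5% and 9.56% of Psmb8 plus Psmb5, against 5.23%, 5.67% and 6.23% with PBS. Psmb10 was 40.9%, 43.2% and 43.5% of Psmb10 plus Psmb7, against 39.1%, 39.5% and 33.1%. The Psmb9 pair overlapped, at 1.16%, 1.81% and 0.707% with OSM, against 1.42%, 1.83% and 1.69% with PBS. These shares are descriptions of transcripts and carry no test.

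**Figure D5:**
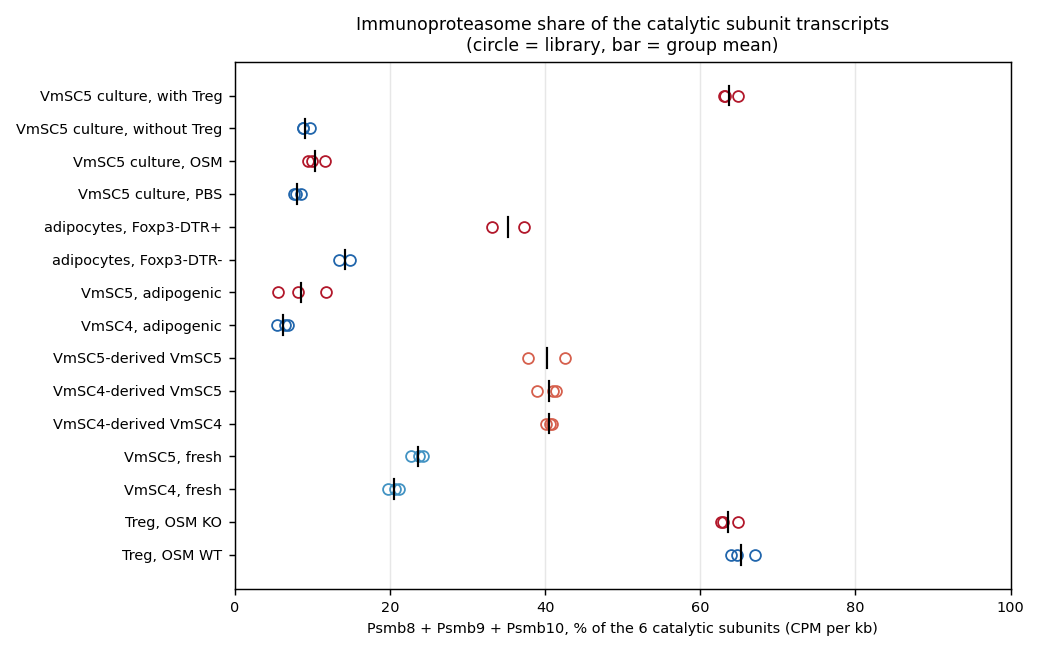
Share of Psmb8, Psmb9 and Psmb10 in the CPM per kb of the 6 catalytic proteasome subunits, in percent, for every library (circles) and group mean (bars). Cultures with Treg (mean 63.7%) lie beside the KO and WT Tregs (63.5% and 65.3%), and cultures without Treg average 9.12%.

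In Tregs of epididymal VAT, the targeted gene was checked first. Osm had 9.83, 14.6 and 7.76 CPM in KO Tregs, against 29.1, 28.4 and 34.1 CPM in WT Tregs, lower without overlap and still detected, at 41, 22 and 26 counts in the KO libraries. Its log2 fold change was -1.51 ± 0.35 (SE), with an unadjusted p of 0.000927 and an edgeR adjusted p of 0.271. Of all genes tested 0.0526% were called, and of the 10 class I genes 0 were called, with 0 at an unadjusted p under 0.05 by edgeR and 0 called by DESeq2. Of all 11416 genes tested these were 1158 and 64.

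Tregs of both genotypes carried high class I levels that overlapped in all 10 genes, while of all genes tested 5.94% lay higher and 10.1% lower in KO Tregs without overlap. H2-K1 had 5560, 7810 and 7350 CPM in KO Tregs, against 7000, 6990 and 7400 CPM in WT Tregs, a log2 fold change of 0 with a 95% interval of -0.34 to 0.33. Psmb8 had 669, 676 and 640 CPM in KO Tregs, against 609, 599 and 668 CPM in WT Tregs (log2 fold change 0.12, interval -0.16 to 0.4). Nlrc5 had 475, 474 and 484 CPM in KO Tregs, against 456, 527 and 498 CPM in WT Tregs (log2 fold change -0.01, interval -0.3 to 0.28). The widest difference was in Psmb9, with 187, 157 and 153 CPM in KO Tregs, against 201, 175 and 226 CPM in WT Tregs (log2 fold change -0.24, interval -0.6 to 0.12). Adjusted p-values of the 10 genes by edgeR ran between 0.673 and 0.996, and no gene of the neighbouring lists was called. Without KO replicate 1, 586 of all genes were called in place of 6, and still 0 of the 10. KO replicate 1 stood apart in the ratio of heavy chains, with 82 counts of H2-K1 per 100 of H2-D1, against 117 and 123 in the other KO libraries and 122, 117 and 118 in WT Tregs. In the same library Foxp3 had 154 CPM, against 359 and 316 in the other KO libraries and 315, 332 and 294 in WT Tregs. Its myeloid markers summed to 67.35 CPM, against 10.62 and 5.673 in the other KO libraries and 15.55, 12.87 and 4.1 in WT Tregs. The part of this in its heavy chain ratio was not tested. Ifng was detected in every Treg library, with 52, 24 and 43 counts in KO Tregs, against 36, 28 and 65 in WT Tregs.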

How the data were processed

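The authors deposited 1 table of raw counts per gene for all 42 libraries, made from polyA RNA by the ImmGen ultra-low-input protocol, per the labels. Per the submitters' processing notes, reads were aligned to mm10 with STAR 2.7.3a and counted with featureCounts. The annotation release, strand setting and treatment of multi-mapping reads are not given in the sources used here. Every count column was assigned to a sample by its name.

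CPM was computed from the library total. Each experiment was fitted alone with edgeR 4.0.16 (TMM scaling, genes kept by filterByExpr with a minimum count of 10, robust quasi-likelihood F test, two-sided, R 4.3.3, limma 3.58.1), with p-values Benjamini-Hochberg adjusted over all genes tested and called under 0.05. Fresh and transferred groups shared 1 fit, as did fresh and cultured groups. SE was taken as the log2 fold change over √F. Exon lengths and overlaps came from GENCODE M21 (GRCm38), in which 52936 of the 55011 symbols were found, and promoters from RefSeq. The alternatives were RLE scaling, library totals (added after seeing the data), no filter, a replicate block, groups fitted alone, DESeq2 1.42.0, each library left out in turn, and transcript length for the subunit share. Group means were also computed as TMM-scaled CPM. Same-numbered libraries deviated together with correlations of at most 0.085, so replicate numbers were not taken as pairs.

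The genes and lists were chosen with earlier results of these data known. The calls among the 10 genes are given in every comparison, in some with values for only part of the genes. Of the other lists the text gives counts and names Psmb5, Psmb6, Psmb7, Psme1, Psme2, Irf1, Rfx5 and up to 4 called genes with the smallest adjusted p per list, with 1 gene the rule names not reported here. The 8 genes of most alike profile were taken by Pearson's r among genes of at least 20 CPM in a group mean. The count table holds only replicates 2 and 3 of each adipocyte group. Single counts at these depths, such as those of Nlrc5 and Psmb9 with OSM, limit the precision of the lowest genes.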

Additional observations from a re-analysis of the deposited data

Results flagged for a closer look

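The OSM response (OSM over PBS) and the Treg response (with over without Treg) of VmSC5 cultures differed in all 10 genes by a test of the difference itself. The differences, OSM response minus Treg response on the log2 scale, were -4.3 for B2m, -4.53 for H2-K1, -3.78 for H2-D1, -4.76 for Tap1 and -2.26 for Tap2. They were -2.75 for Tapbp, -5.3 for Psmb8, -6.13 for Psmb9, -3.69 for Psmb10 and -5.53 for Nlrc5. The edgeR adjusted p-values lay between 1.6e-34 for H2-K1 and 7.87e-14 for Nlrc5. The 2 sets of cultures had their own controls, and a batch difference between the sets cannot be told apart from a difference between the experiments.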

How the results depend on the processing

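Calls among the 10 genes kept their direction in the Treg comparison, where each of the alternatives gave 10. Leaving out 1 library in turn gave 10 to 10 calls there and for the OSM minus Treg difference, 5 to 8 for OSM, 3 to 4 for fresh VmSC5 against VmSC4, 4 to 6 for VmSC4-derived VmSC4 and 3 to 5 for VmSC5-derived VmSC5 against fresh cells. It gave 3 to 4 for cultured VmSC4, 4 to 6 for cultured VmSC5, 0 to 2 between the cultured populations, 0 to 1 for the difference of their responses and for VmSC5-derived VmSC5 against VmSC4-derived VmSC4, 0 to 8 for DTR+ adipocytes and 0 to 0 for KO Tregs.

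Counts of calls that moved by more than 1.5 times were these. VmSC4-derived VmSC5 against VmSC4-derived VmSC4 gave 2 with DESeq2 and 2 with the groups fitted alone, in place of 0, and VmSC5-derived VmSC5 against VmSC4-derived VmSC4 gave 2 with DESeq2 in place of 1. With library totals cultured VmSC4 gave 8 in place of 5, cultured VmSC5 gave 7 in place of 4 and DTR+ adipocytes gave 0 in place of 2. DTR+ adipocytes gave 4 with RLE scaling, 4 with no filter and 7 with DESeq2, cultured VmSC5 against VmSC4 gave 1 with no filter, and the difference of the culture responses gave 1 with DESeq2. The cause was not tested. With the replicate number as a block, DTR+ adipocytes gave 0 calls and VmSC4-derived VmSC5 against VmSC4-derived VmSC4 gave 1, and the crossed replicate block, added after seeing a same-number correlation of -0.386, gave 7 in adipocytes. The replicate block also ended the call of Psmb9 with OSM (adjusted p = 0.0502).

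In cultured over fresh VmSC4, Psmb10 (main log2 fold change 0.03) turned to -0.13 with no filter and -0.51 with library totals, and lay between -0.12 and 0.09 with libraries left out. In VmSC5, Tapbp (0.23) turned to -0.19 with library totals, and with libraries left out Psmb8 (-0.09) lay between -0.58 and 0.22 and Psmb9 (-0.17) between -0.47 and 0.1. With the longest transcript as length, the immunoproteasome share became 37.9% in VmSC4-derived VmSC4, 38% in VmSC4-derived VmSC5, 8.32% without Treg, 65% in KO and 67% in WT Tregs.

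Over all genes, counts of calls moved by more than 1.5 times for VmSC4-derived VmSC5 against VmSC4-derived VmSC4 (247; 450 with no filter, 482 with DESeq2, 893 with groups alone) and against VmSC5-derived VmSC5 (160; 314, 274 and 529). VmSC5-derived VmSC5 against VmSC4-derived VmSC4 had 475 and with groups alone 841, cultured VmSC5 against VmSC4 had 45 (167, 94 and 215), and the difference of culture responses had 379 (644 with no filter, 621 with DESeq2). DTR+ adipocytes had 287 (111 with the replicate block, 1055 with the crossed block, 545 with DESeq2, 0 with library totals, 6 to 5370 with libraries left out) and KO Tregs had 6 (199 with no filter, 64 with DESeq2, 586 without KO replicate 1 and 0 to 5 without any other library). With libraries left out, VmSC4-derived VmSC5 had 39 to 166 against VmSC4-derived VmSC4 and 31 to 84 against VmSC5-derived VmSC5, VmSC5-derived VmSC5 had 131 to 327 against VmSC4-derived VmSC4, cultured VmSC5 had 17 to 99 against VmSC4, and the difference of culture responses had 155 to 661. Library totals shifted the median gene by -0.36 in DTR+ adipocytes, -0.13 in the OSM minus Treg difference, 0.12 in the difference of culture responses and -0.1 with OSM. They also lowered the share of calls that were higher, for fresh cells to 26.8% in place of 40.3%, for cultured VmSC4 to 30% in place of 45.3% and for cultured VmSC5 to 35.2% in place of 47%. For VmSC4-derived VmSC5 that share was 20% in place of 42.1% against VmSC4-derived VmSC4 and 31.6% in place of 45.6% against VmSC5-derived VmSC5, for the OSM minus Treg difference 33.8% in place of 46.1%, and for KO Tregs 0% in place of 16.7%. It was 81% in place of 64.6% for the difference of culture responses.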
